A study of Procambarus virginalis with 3 samples.

Results

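In RNA sequencing of hemocytes from the marbled crayfish (*Procambarus virginalis*), 190 of 21773 gene models (0.873%) carried names that mark them as built from protein homology. They were selected by identifier alone, namely by a prefix of maker- and the term exonerate_protein2genome. The samples were 3 libraries, hem37, hem39 and hem40, which form 1 group. Marbled crayfish are parthenogenetic and genetically uniform, and the labels give hemocytes of pooled wild animals caught in lake Reilingen as the source. Neither the number nor the age of the animals in each library is given, and no treatment or genotype distinguishes the libraries. The study describes the 3 hemocyte datasets as independent, without saying whether they came from separate animals. Nothing in the labels says so either. The tests below therefore measure the spread between these libraries only, which may be technical. Expected counts summed to about 18986800 in hem37, 17368000 in hem39 and 21143400 in hem40.

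Hemocytes are the circulating cells of the hemolymph and carry out clotting, phagocytosis and encapsulation in crustaceans. MAKER is an annotation pipeline that joins several kinds of evidence into gene models, and exonerate is the program that it uses for spliced alignment. In protein2genome mode, a protein known from some organism is aligned to genomic DNA across introns, so that a model can be drawn where no RNA has been seen. In est2genome mode, a transcript sequence is aligned instead, so that the model starts from RNA and can extend beyond the coding sequence. The 2606 est2genome models of the same annotation therefore served as the comparison. The identifiers name a scaffold and a running number, with no gene or protein name beside it in the files. Roles of the encoded proteins are for this reason not described, and the tissue label was not checked against hemocyte marker genes.

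The models built from protein homology were short, and most of those with 1 transcript had a length divisible by 3. Their median length was 238.5 bases (quartiles 157 and 447), against 480 bases for est2genome models (quartiles 385 and 629) and 546 bases for all models. They included both ends of the length scale of the whole table, from 18 bases to 38234 bases. A total of 62 (32.6%) were shorter than the shortest est2genome model, which had 186 bases. Among the 121 with 1 transcript, 95.9% had a length that is a multiple of 3, against 39.7% of 2543 est2genome models with 1 transcript and 70.6% of such models in the whole table. The share was also high, at 88.9% and 87.0%, among models with identifiers that start with snap- and snap_masked-. Reading frames themselves were not examined. Several transcripts were annotated for 69 of the 190 (36.3%), against 63 est2genome models (2.42%), and the highest number was 20 transcripts. All 11 gene models of the table with 5 or more transcripts were of this kind, and the 190 supplied 23.4% of the 295 models with several transcripts. A TPM (a length-scaled unit of transcript abundance) of at least 1 in every library was reached by 35 of these 69 (50.7%) and by 56 of the 121 with 1 transcript (46.3%).

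Detection of these models was lower than that of est2genome models in every library. TPM divides counts by the effective length of a model and scales them to the same sum in each library. A TPM of at least 1 was reached by 100 of 190 models in hem37, by 103 in hem39 and by 103 in hem40. This was 53.7% ± 0.912 of the set (SD, n = 3), whereas 78.4% ± 1.84 of est2genome models did (SD, n = 3). In all 3 libraries together, 91 models (47.9%) reached this threshold, against 1912 est2genome models (73.4%). At the other end, 55 models (28.9%) were listed at 0 in every library, against 158 est2genome models (6.06%) and 6.45% of all models. Of the remaining models, 106 had a TPM above 0 in every library, 16 in 2 libraries and 13 in 1 library. The 29 models that were found in only some libraries had a median of 1 expected count, and only 3 of them had a mean of at least 10.

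No model under 50 bases was detected, and above that length the share detected showed no steady trend. All 8 models under 50 bases were listed at 0. The effective length in the files lies 49.99 bases below the length for a typical model and was 0 for these 8, so they could not receive a read. Without them, 47 of 182 models (25.8%) were still at 0 in every library. Between 50 bases and the length of the shortest est2genome model, 28 of 54 models (51.9%) had a TPM of at least 1 in every library, close to 82 of 156 other models of that length (52.6%), and 14 were at 0 (25.9%), against 18 (11.5%) of the others. From there up to 500 bases, 42 of 90 models were detected (46.7%), against 74.2% of 1378 est2genome models, and 25 were at 0 (27.8%, against 4.79%). Between 500 and 1000 bases, 14 of 24 were detected (58.3%, against 70.8% of 1072 est2genome models), and 3 were at 0 (12.5%, against 8.12%). Of the 14 models of 1000 bases or more, 7 were detected, against 83.3% of 156 est2genome models, and 5 were at 0 (35.7%, against 3.21%).

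**Figure D1:**
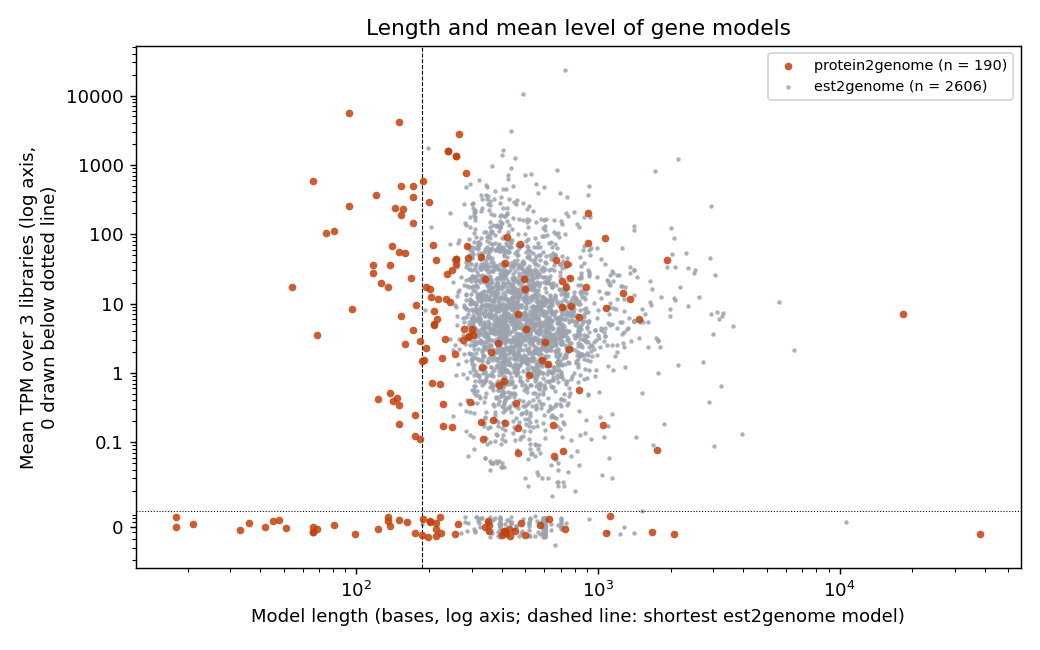
Mean TPM over 3 libraries (log axis, 0 drawn below the dotted line) against model length in bases (log axis), with 1 point per gene model for 190 protein2genome models and 2606 est2genome models. The dashed line marks 186 bases, the shortest est2genome model, and 62 protein2genome models lie left of it. Of the protein2genome points, 55 lie in the strip at 0.

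To compare levels at like length, each model was set beside all est2genome models within 5% of its length, provided that at least 10 existed. This was possible for 87 of the 190 models, from 249 to 2069 bases, with a median of 171 est2genome models per window and 2527 distinct est2genome models in all. The other 103 models had no such window and were not part of this comparison. In hem37, 54.0% of the 87 models had a TPM of at least 1, against 81.1% in their windows. In hem39, the shares were 55.2% and 79.1%, and in hem40 they were 54.0% and 82.8%. The mean difference was -26.6 percentage points ± 2.46 (SD, n = 3), lower in 3 of 3 libraries. By an exact sign-flip permutation test over the libraries, two-sided, p was 0.25, which is the smallest value that 3 libraries allow. In every library at once, 42 of the 87 (48.3%) were detected, against 76.1% in the windows, and 21 (24.1%) were at 0, against 4.63%. When the windows were instead filled with all models other than protein2genome models, which was decided after seeing the data and reached 137 models, the shares in every library were 49.6% and 63.6%.

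The level of the 87 models lay below that of est2genome models of like length for a typical model, but the set was split. The median difference in log2(TPM + 0.1) from the window median was -1.74 in hem37, -1.41 in hem39 and -2.01 in hem40, with a mean of -1.72 ± 0.30 (SD, n = 3). This difference was also negative in 3 of 3 libraries, with an exact sign-flip permutation p of 0.25, two-sided. Among models averaging at least 10 expected counts on both sides, however, the difference was 1.16, so its direction changed once models with few reads were left out. In mean TPM, 31 of the 87 models ranked in the lowest 10% of their windows and 13 in the highest 10%, and no model fell between the 60th and the 70th percentile. In all, 5 models exceeded every est2genome model of like length. They included both members of a pair with identical counts, on scaffold113356 and scaffold336218, which reads could not tell apart. Of the 137 models with windows of all other models, 0 exceeded every model of like length. Over the whole set, the median of the mean TPM was 2.23, with an upper quartile of 23.2, against a median of 4.79 and an upper quartile of 14.7 for est2genome models. The upper quartile was thus higher in protein2genome models although the median was lower.

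**Figure D2:**
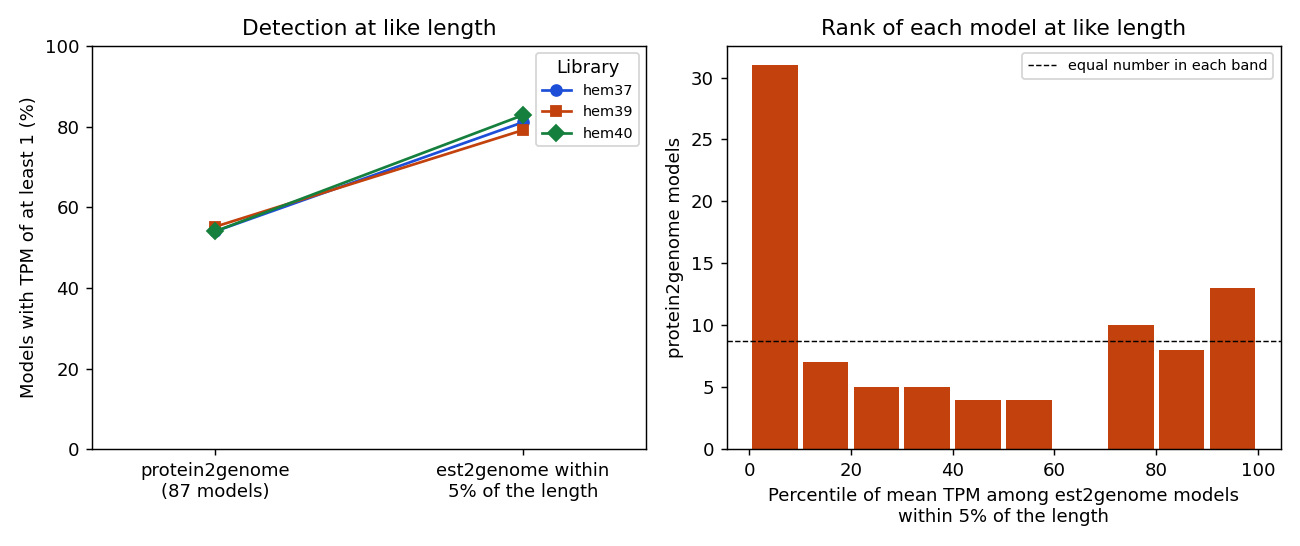
Left, the percentage of models with a TPM of at least 1 in each of 3 libraries, for 87 protein2genome models and for est2genome models within 5% of their length; the shares lie between 54.0% and 55.2% and between 79.1% and 82.8%. Right, the number of protein2genome models by percentile of their mean TPM among the est2genome models of like length, with 31 in the lowest band, 0 between 60 and 70, and 13 in the highest.

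A few models held most of the signal. The 190 models took 0.418% ± 0.00657 of expected counts (SD, n = 3) but 2.54% ± 0.107 of TPM (SD, n = 3), because short models receive more TPM per read. The 10 highest models of each library made up 80.2% ± 2.01 of the TPM of the set (SD, n = 3), and 8 models were among these 10 in every library. The highest model ranked 10th among all gene models, and 5 of the 100 most abundant models were of this kind.

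The highest level belonged to maker-scaffold45412-exonerate_protein2genome-gene-0.29, a model of 93 bases. It had 5143 TPM in hem37, 6430 TPM in hem39 and 5063 TPM in hem40, from 4434, 5167 and 4706 expected counts. It was highest in hem39, and a chi-square test with Benjamini-Hochberg adjustment over all models found more variation of its counts between libraries than sampling noise gives (adjusted p = 6.35e-114). The second, maker-scaffold73662-exonerate_protein2genome-gene-0.2 (150 bases), followed the same order, with a TPM of 3924, 4930 and 3499 in hem37, hem39 and hem40. The third, maker-scaffold8077-exonerate_protein2genome-gene-0.4 (267 bases, 2 transcripts), had 3715 TPM in hem37, 2727 TPM in hem39 and 2015 TPM in hem40. This model was thus lowest in hem40, and it lay above all 28 est2genome models in its window, whose median was 7.73 TPM.

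Some of the highest models came as copies that could not be told apart by reads. maker-scaffold15282-exonerate_protein2genome-gene-0.11 and maker-scaffold15282-exonerate_protein2genome-gene-0.16, both of 240 bases on the same scaffold, had identical values, with 1337 TPM in hem37, 1346 TPM in hem39 and 2017 TPM in hem40. maker-scaffold113356-exonerate_protein2genome-gene-0.0 and maker-scaffold336218-exonerate_protein2genome-gene-0.1, with 258 bases and 2 transcripts each, were identical too, with a TPM of 1113, 1188 and 1664 in hem37, hem39 and hem40. In both pairs hem40 was the highest library, and hem37 and hem39 lay close together. The same 2 scaffolds shared a further pair with identical expected counts. Together these 6 models, in 3 pairs, held 23.1% of the TPM of the set. Copies with identical counts and a mean of at least 10 made up 3.16% of the 190 models. They made up 1.42% of est2genome models and 0.519% of all models. RSEM, the program that made the counts, divides reads that fit several models and reports the posterior SD that results. For the scaffold15282 pair this SD was 1082 of 5092 counts in hem37, 849 of 4779 in hem39 and 1444 of 8281 in hem40. The level of each copy is therefore uncertain. Summed over the pair, the counts were 10183 in hem37, 9558 in hem39 and 16562 in hem40, again highest in hem40.

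The last 3 of the 10 highest models were of other lengths and patterns. maker-scaffold24530-exonerate_protein2genome-gene-1.5 (284 bases, 2 transcripts) had 417 TPM in hem37, 1435 TPM in hem39 and 461 TPM in hem40, so that hem39 stood apart from both other libraries. maker-scaffold26371-exonerate_protein2genome-gene-0.7 (189 bases, 3 transcripts), the only model on its scaffold, had 574, 716 and 479 TPM in the same order of libraries. maker-scaffold33921-exonerate_protein2genome-gene-0.26 had only 66 bases and an effective length of 16.01, and its 738, 679 and 332 TPM came from 237, 203 and 115 expected counts. All 10 models varied between libraries beyond sampling noise, as did 55.2% of all models tested, and 83.6% of those with a mean of at least 300 expected counts. All of the 10 but the scaffold33921 model reached that depth. With the posterior variance of RSEM added, both members of the scaffold15282 pair (adjusted p = 0.527) and of the scaffold113356 and scaffold336218 pair (adjusted p = 0.676) no longer passed the chi-square test. That variance was added to each copy taken alone, and the summed counts of a pair were not tested. The coefficients of variation of the 10 models (SD divided by mean of TPM over libraries) were 0.138 for the scaffold45412 model, 0.178 for scaffold73662, 0.303 for scaffold8077, 0.249 for the scaffold15282 pair and 0.226 for the scaffold113356 and scaffold336218 pair. They were 0.747 for scaffold24530, 0.202 for scaffold26371 and 0.376 for scaffold33921. A single library set several of these values. Without hem39 they were 0.0111 for scaffold45412, 0.0809 for scaffold73662, 0.0704 for scaffold24530 and 0.128 for scaffold26371, and without hem40 they were 0.00499 for the scaffold15282 pair, 0.0458 for the scaffold113356 pair and 0.0586 for scaffold33921.

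**Figure D3:**
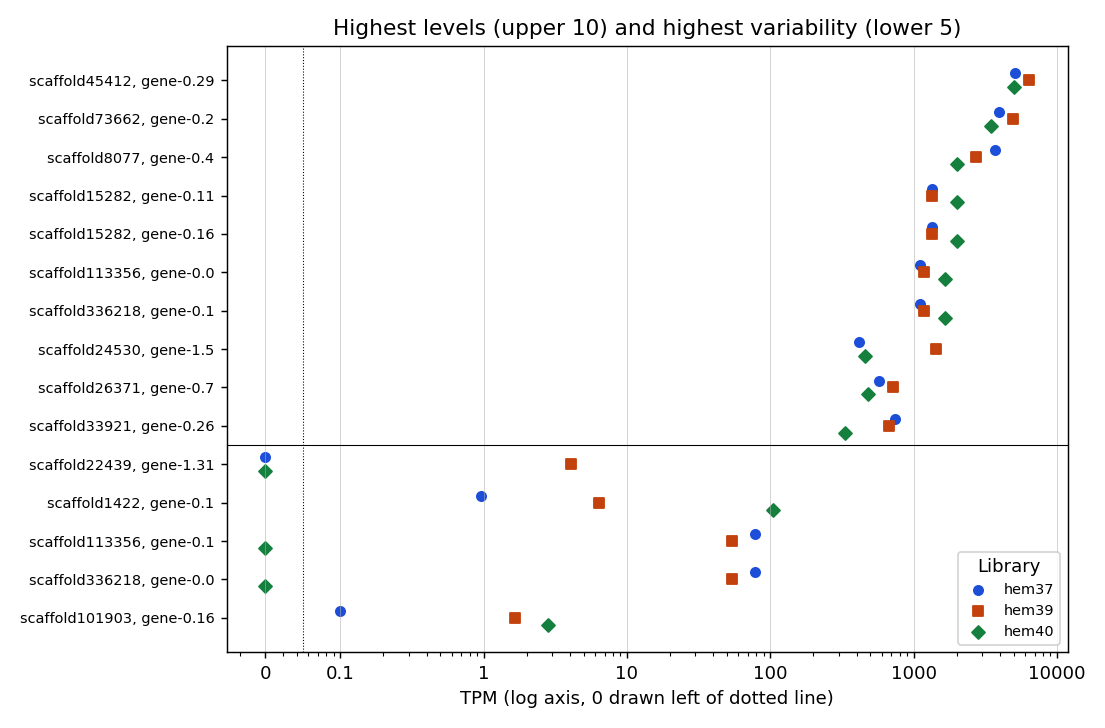
TPM (log axis, 0 drawn left of the dotted line) in hem37, hem39 and hem40, with 1 row per model, for the 10 protein2genome models with the highest mean TPM and the 5 with the highest coefficient of variation among those with a mean of at least 10 expected counts. In the upper 10 rows all values exceed 300 TPM and differ at most 3.44-fold between libraries, whereas 3 of the lower 5 rows include a value of 0.

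The longest models showed no common level. maker-scaffold237663-exonerate_protein2genome-gene-0.0, with a length of 38234 bases and 20 transcripts, was the longest gene model of the table and had no count in any library. With an upper limit of 3 counts for a count of 0, and at its listed effective length, its TPM limit was 0.00392 in hem37, 0.00421 in hem39 and 0.00364 in hem40. This limit covers counting error only, since reads made by PCR are not independent molecules. maker-scaffold195693-exonerate_protein2genome-gene-0.0 (18360 bases), the fifth longest of the table, had 7.43 TPM in hem37, 5.39 TPM in hem39 and 8.08 TPM in hem40, from 2726, 1844 and 3198 expected counts. maker-scaffold13148-exonerate_protein2genome-gene-1.1 (1932 bases, 3 transcripts) reached 45.6, 37.9 and 42.0 TPM in the same order. These last 2 models passed the chi-square test for variation (adjusted p = 6.51e-13 and 0.000411), and in TPM both were lowest in hem39. In TMM-scaled counts, which the test used, the scaffold13148 model was instead lowest in hem40. maker-scaffold21607-exonerate_protein2genome-gene-0.69 (1752 bases, 20 transcripts) had 3, 2 and 3 expected counts, or 0.09, 0.06 and 0.08 TPM.

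Further long models had no reads at this depth. maker-scaffold55296-exonerate_protein2genome-gene-0.0 (2069 bases), maker-scaffold95394-exonerate_protein2genome-gene-0.0 (1671 bases), maker-scaffold335038-exonerate_protein2genome-gene-0.4 (1118 bases) and maker-scaffold20536-exonerate_protein2genome-gene-0.7 (1077 bases) were at 0 in every library. Their limits from 3 counts lay between 0.0688 and 0.0796 TPM for scaffold55296 and between 0.135 and 0.156 TPM for scaffold20536. By contrast, the median mean TPM of est2genome models in the same length windows was 22.8 for scaffold55296, 5.29 for scaffold335038 and 4.84 for scaffold20536. These windows held 10, 33 and 31 est2genome models in the same order, so the first rests on the minimum number allowed. In all, 8 models of 500 bases or more were at 0 in every library.

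The models were spread over the assembly. They occupied 171 scaffolds, of which 160 held 1 of them, 11 held several and the maximum was 4. Of the 190, 63 (33.2%) were the only gene model on their scaffold, against 30.7% of est2genome models and 33.3% of all models. Among these 63 models, 22 (34.9%) had a TPM of at least 1 in every library, whereas 69 of the 127 with neighbours did (54.3%). The corresponding shares were 76.0% and 72.2% for est2genome models and 67.8% and 71.5% for all models. The share at 0 in every library was 36.5% for the lone models and 25.2% for those with neighbours. No test was made of this difference, because models are not replicates.

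Models on the same scaffold could differ widely. scaffold1807 held 4 of them among 13 gene models. maker-scaffold1807-exonerate_protein2genome-gene-1.23 (710 bases) was steady, with 21.1 TPM in hem37, 22.1 TPM in hem39 and 21 TPM in hem40. maker-scaffold1807-exonerate_protein2genome-gene-1.22 (707 bases) had 11.2, 9.03 and 6.89 TPM, lowest in hem40, and maker-scaffold1807-exonerate_protein2genome-gene-1.24 (831 bases) had 5.91, 4.51 and 8.44 TPM, highest in hem40. The last of these 3 had the same posterior SD of the count as gene-1.23 in each library, 2.84, 2.68 and 3.59, which is a small part of either count. By the chi-square test the adjusted p was 0.359 for gene-1.23, 0.000215 for gene-1.22 and 0.0132 for gene-1.24. maker-scaffold1807-exonerate_protein2genome-gene-1.27 (389 bases) stayed under 1 TPM in every library. On scaffold18353, which held 4 such models among 25, maker-scaffold18353-exonerate_protein2genome-gene-2.11 had 1.83, 3.89 and 3.40 TPM and maker-scaffold18353-exonerate_protein2genome-gene-2.13 had 5.36, 3.54 and 3.44 TPM in hem37, hem39 and hem40. At 7 to 13 counts per library, variation beyond sampling noise was not detectable in either (chi-square test, adjusted p = 0.865 and 0.572).

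Variability between libraries was then examined for the models with enough reads. The chi-square test compared the 3 expected counts of each model with TMM-scaled library sizes (trimmed mean of M values), over all 16140 models with a mean of at least 10 expected counts. Of the 190 models, 93 could be tested, and 48 of these (51.6%) passed the adjusted threshold of 0.05, which is called variation beyond sampling noise here, against 55.2% of all models tested. The share was thus near that of the whole table. It was 37.6% among 2033 est2genome models, whose median mean count was lower, at 72.5, than the 145 of the protein2genome models tested. Split by depth, the shares were 22.2% of 18 protein2genome models and 20.1% of est2genome models at 10 to 29 counts, and 38.9% of 18 and 29.9% at 30 to 99 counts. They were 46.2% of 26 and 40.6% from 100 to under 300 counts, and 80.6% of 31 and 72.1% at 300 counts or more. Over all models tested, the shares in these 4 bands were 24.99%, 35.9%, 55.2% and 83.6%, so that the protein2genome share was below that of the whole table in 3 of the 4 bands. With the posterior variance of RSEM counted as further noise, 42 of the 93 (45.2%) passed, against 47.7% of all models. Of the 6 models that no longer passed, 4 were the identical copies with high TPM described above. The others were maker-scaffold2220-exonerate_protein2genome-gene-0.10 and maker-scaffold72324-exonerate_protein2genome-gene-0.9, named after their values were seen.

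Among the 48 varying models, the scaled counts were highest in hem37 for 11, in hem39 for 17 and in hem40 for 20. These were 22.9%, 35.4% and 41.7% of the 48, against 29.2%, 37.7% and 33.2% of all varying models of the table in the same order of libraries. In 18 of the 48 (37.5%), the highest TPM was more than 2-fold above the lowest, against 33.1% of varying est2genome models and 33.6% of all varying models.

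The coefficient of variation had a median of 0.279 over the 135 models with a mean TPM above 0 (quartiles 0.183 and 0.790), against 0.222 over 2448 est2genome models (quartiles 0.127 and 0.397) and 0.252 over all models. Among the models tested for variation, the medians were 0.220 and 0.188 (est2genome). At like length, the coefficient was 0.114 above the window median for a typical model, and it was higher in 47 of 66 models. The difference fell to 0.0495 with at least 10 expected counts on both sides and to 0.0651 when the mean TPM also had to lie within 2-fold. Without hem39 it was 0.0539. Against all other models of like length, which could be computed for 104 models, it was -0.018. The biological coefficient of variation of edgeR estimates the spread left after counting error and draws each model towards a value shared across models. Its median was 0.255 in the 93 models, 0.243 in est2genome models and 0.25 in all models tested. Because of that sharing, the closeness of these medians does not show that the groups varied alike.

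**Figure D4:**
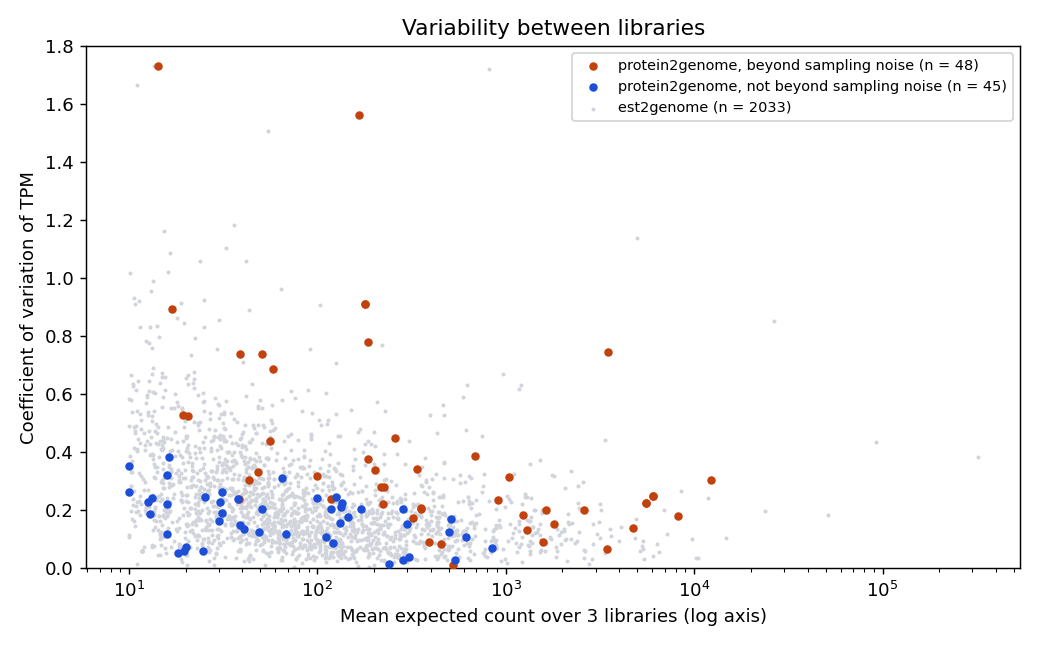
Coefficient of variation of TPM over 3 libraries against the mean expected count (log axis), for gene models with a mean of at least 10 counts. Of 93 protein2genome models, 48 passed the test of variation beyond sampling noise and 45 did not, and those that passed lie towards high counts or high coefficients, among 2033 est2genome models.

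The most variable models had most of their reads in only 1 or 2 libraries. maker-scaffold22439-exonerate_protein2genome-gene-1.31 (618 bases) had 43 expected counts and a TPM of 4.05 in hem39 and no count in hem37 or hem40, where the limit from 3 counts was 0.263 and 0.244 TPM. maker-scaffold1422-exonerate_protein2genome-gene-0.1 (258 bases) had 0.96 TPM in hem37, 6.43 TPM in hem39 and 104.8 TPM in hem40, from 4, 25 and 471 expected counts. It thus differed over all 3 libraries, and it gave an adjusted p of 4.40e-141 by the chi-square test, with a coefficient of variation of 1.56. Neither of these models had any posterior uncertainty from shared reads. maker-scaffold113356-exonerate_protein2genome-gene-0.1 and maker-scaffold336218-exonerate_protein2genome-gene-0.0 (258 bases each), the third pair with identical counts, had 78.5 TPM in hem37, 53.7 TPM in hem39 and 0 TPM in hem40. Their posterior SDs were 142 and 128 of 327 counts in hem37, so that their level rests on how reads were divided. Their coefficient of variation of 0.910 was 0.265 without hem40. maker-scaffold101903-exonerate_protein2genome-gene-0.16 (584 bases, 2 transcripts) had 1, 16 and 34 expected counts in hem37, hem39 and hem40, or 0.10, 1.65 and 2.80 TPM. Its coefficient of 0.893 was 0.365 without hem37.

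The steadiest models were of moderate level and longer than most of the set. maker-scaffold59842-exonerate_protein2genome-gene-1.42 (744 bases) had 38.2 TPM in hem37, 37.3 TPM in hem39 and 37.6 TPM in hem40, a coefficient of variation of 0.0113. With TMM-scaled counts its coefficient was 0.0924, and by the chi-square test on those it passed the threshold with an adjusted p of 0.0253, so that its steadiness holds for TPM only. maker-scaffold212301-exonerate_protein2genome-gene-0.1 (735 bases), the only model on its scaffold, had 17.2, 17.7 and 17.7 TPM in the same order. maker-scaffold32647-exonerate_protein2genome-gene-1.48 (672 bases) had 42.3, 42.0 and 44.3 TPM, and maker-scaffold131471-exonerate_protein2genome-gene-0.0 (1351 bases, 6 transcripts) had 11.5, 11.3 and 12.2 TPM. The remaining 1 of these 5 was the scaffold1807 model gene-1.23 described above. Apart from the scaffold59842 model, none of the 5 varied beyond sampling noise, with adjusted p between 0.0885 and 0.359 by the chi-square test. With TMM-scaled counts, the coefficients of all 5 lay between 0.0641 and 0.105. In TPM, all 5 coefficients lay below counting error alone, which was 4.32% to 6.43% of the mean count for these models. They were picked as the lowest of 93 models, so such low values do not measure a lasting steadiness.

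Reads shared with other models were less common than for est2genome models. Of the 135 models with any count, 33 (24.4%) had a posterior SD above 0 in at least 1 library, against 94.7% of 2450 est2genome models and 69.9% of all models with a count. Among models with a count, ambiguous assignment was thus concentrated in a minority, which included the 3 pairs of identical copies. These shares leave out models listed at 0 in every library, of which some also had a posterior SD above 0. For maker-scaffold349041-exonerate_protein2genome-gene-0.0, named after its values were seen, the SD was 2.53, 2.87 and 2.17 counts in hem37, hem39 and hem40. Across models with a TPM above 0 in both libraries of a pair, Pearson's r of log10 TPM was 0.957 for hem37 and hem39 (112 models), 0.956 for hem37 and hem40 (112 models) and 0.950 for hem39 and hem40 (110 models). For est2genome models, r was 0.954, 0.961 and 0.951 in the same order. Among protein2genome models with a mean TPM of at least 1, 18.8%, 11.2% and 19.2% differed over 2-fold in these pairs. The corresponding shares were 9.97%, 6.74% and 12.5% for est2genome models and 14.1%, 7.92% and 16.7% for all models. These values describe pairs of libraries, and models are not independent replicates. For counts of the protein2genome models tested, the chi-square divided by its degrees of freedom was 57.7 to 97.6 over the 3 pairs of libraries, against 58.1 to 150 over all models tested, so no 2 libraries agreed within sampling noise. The median over single models was 2.71 to 4.46, against 2.35 to 4.05 over all models, so that a few models carried most of the sum.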

How the data were processed

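RNA was taken from hemocytes in 3 libraries, extracted with Trizol, treated with DNase and made into TruSeq version 2 libraries. The submitters' processing notes name HISAT2 2.0.4 and RSEM 1.2.30. Build and annotation release are not given in the sources used here. For each library, the authors deposited RSEM's expected counts (estimated reads per gene model, not normalized) and TPM values (per effective length, summing to a fixed total). The deposited posterior SDs and interval bounds were treated as scores of assignment uncertainty. Because TPM is a share per effective length, very short models gain much TPM from few reads.

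Length was averaged over libraries, since it depends on transcript usage. Expected counts were rounded for the chi-square test (2 degrees of freedom, mean count of at least 10, Benjamini-Hochberg adjustment over all models, threshold 0.05). A quasi-likelihood contrast was not possible with 1 group. TMM factors and biological coefficients of variation came from edgeR 4.0.16 and size factors from DESeq2 1.42.0 (R 4.3.3, Python 3.11.15, scipy 1.17.1). The test was checked on simulated data. Depth limits detection: for a model of median effective length in the set, 3 counts correspond to 0.788, 0.880 and 0.731 TPM in hem37, hem39 and hem40.

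Models named were the 10 highest in mean TPM, the 5 most and 5 least variable with at least 10 mean counts, the 5 longest, the 5 longest at 0 and up to 6 on the scaffolds with most members. The set is defined by identifier, but it and these rules were chosen with earlier results of these data known. Alternatives covered thresholds, pseudocounts, length windows, filters, scaling, posterior variance and omission of each library.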

Additional observations from a re-analysis of the deposited data

How the results depend on the processing

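Of 62 alternative values, 2 reversed and 15 moved by more than a set spread. That spread was the SD between libraries for the median TPM, and the SD of the values without each library for the coefficients of variation. A reversal was scored only for the level and detection differences. Of the values that moved, the difference in the coefficient of variation against all other models also changed sign, from 0.114 to -0.018. The other 45 kept the sign of a level or detection difference, stayed within 1.5 times of a count, or stayed within that spread. The level difference from est2genome models of like length reversed to 1.16 with a mean of at least 10 expected counts on both sides and to 1.11 with models above 0 TPM in every library only, a setting chosen after seeing the data. Both settings remove protein2genome models without reads by construction. The second left the est2genome windows unfiltered, so that an upward shift was built into that comparison. Where it kept its sign, the level difference was -2.84 with the 5 nearest est2genome models, -2.58 for models with 1 transcript, -1.27 with a window of 10% and -0.81 against all other models. The detection difference is given here for detection in every library at once, not as the mean over libraries. It was -27.8 percentage points in the main setting. It was -13.7 percentage points at a TPM of at least 5, -14.0 against all other models and -38.4 for models with 1 transcript. The comparisons with all other models and those for 1 transcript were chosen after seeing the data. Without a library, the level difference was -1.88 to -1.58 and the detection difference -27.7 to -26.4 percentage points. The median mean TPM was 26.4 for models with at least 10 mean counts, and 2.29 to 2.44 without a library. The median coefficient of variation was 0.227 among models averaging 1 TPM or more, 0.220 among those averaging 10 counts or more, and 0.195 to 0.281 without a library. The difference in this coefficient at like length was 0.148 with a window of 2%, 0.0793 with 10%, 0.0651 with TPM also within 2-fold, 0.0576 without length windows, 0.0495 at a mean count of at least 10, -0.018 against all other models of like length, and 0.0539 to 0.0927 without a library. The cause of these moves was not tested. The number of models beyond sampling noise was 33 to 43 without a library (34.7% to 46.7%, against 31.8% to 45.6% of all models) and 59 with unscaled totals (63.4%, against 59.0%). No paired analysis was possible because only 1 group was sampled.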

Other observations

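On scaffold33921, the 4 models built from protein homology, in the order of their identifiers, had lengths of 213, 66, 66 and 213 bases. Both models of 213 bases and 1 model of 66 bases were at 0 in every library, while the other, gene-0.26, had 237, 203 and 115 expected counts in hem37, hem39 and hem40. The 2 models of 213 bases nonetheless had posterior SDs of 0.25 to 0.38 counts. These models were chosen after their values were seen, and no test was made. Genomic positions were not used here.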
